A study of Homo sapiens with 4 samples.

Results

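MicroRNA levels in LNCaP cells given 10 nM of the synthetic androgen R1881 were set against those in LNCaP cells given 1 nM, which asks what a 10-fold higher androgen dose adds. LNCaP is a prostate adenocarcinoma cell line whose androgen receptor is mutated and whose growth depends on androgen. Per the labels, both groups spent 24 hours without androgen, in 10% serum stripped with charcoal, before R1881 was added, and total RNA was taken with Trizol. The labels do not give the length of treatment. Cy3-labelled RNA, 10 µg per array, was hybridised to custom 1-colour CombiMatrix arrays. The comparison uses the array titled for 1 nM and the array titled for 10 nM, 2 of the series' 4 arrays, and it covers the 455 human miRNAs with a match probe, 1 each, among the 1406 probes of each array. With 1 array per dose there is no replicate error, so no difference below has a test, and every ratio describes these 2 arrays and not the doses in general. RNA of whole cultures was measured, so fewer cells with a miRNA and less of it per cell cannot be told apart.

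MicroRNAs are short RNAs that guide Argonaute proteins to partly complementary sites in mRNAs and lower the output of those mRNAs. Bases 2 to 8 from the 5′ end, the seed, set most of the pairing, so miRNAs with 1 seed form a family with overlapping targets. R1881 binds the androgen receptor, which then acts on chromatin as a transcription factor, and several miRNA genes, among them that of miR-21, are known as androgen-responsive in prostate cancer cells.

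The mature sequences below, from RefSeq on build GRCh38.p14, are those of the miRNAs that stood highest or lowest at 10 nM together with their close relatives. Capitals mark the seed. The array's names mostly carry no arm, and the arm shown is the one the plain name stood for.
miR-29c: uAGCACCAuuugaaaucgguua
miR-29b: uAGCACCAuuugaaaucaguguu
miR-29a: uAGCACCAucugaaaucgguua
miR-148a: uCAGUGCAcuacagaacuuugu
miR-148b: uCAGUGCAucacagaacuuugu
miR-21: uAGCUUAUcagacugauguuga
miR-494: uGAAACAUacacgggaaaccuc
miR-100: aACCCGUAgauccgaacuugug
miR-99a: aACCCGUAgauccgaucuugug
miR-99b: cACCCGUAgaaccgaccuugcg
miR-214: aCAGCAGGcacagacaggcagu
miR-191: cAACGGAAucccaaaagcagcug
miR-26b: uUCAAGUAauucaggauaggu
miR-26a: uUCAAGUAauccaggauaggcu
miR-203: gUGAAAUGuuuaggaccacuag
miR-182: uUUGGCAAugguagaacucacacu
miR-23a: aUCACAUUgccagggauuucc
miR-23b: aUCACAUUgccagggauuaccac
The miR-29, miR-99/100, miR-26, miR-23 and miR-148 groups each share a seed. Over the aligned bases miR-29a and miR-29c differ at 1 base, miR-99a and miR-100 at 1, miR-23a and miR-23b at 1, and miR-26a and miR-26b at 2. Binding of a relative to a probe was not tested.

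Net signal is the array's mean signal minus the median signal of its mismatch probes, copies of match probes with 2 altered bases; that median was 295.75 at 1 nM and 280.25 at 10 nM. A miRNA was detected when its signal exceeded the median of the mismatch probes by more than 3 scaled median absolute deviations, which is a net signal of 139 at 1 nM and 144 at 10 nM. More probes were detected at 10 than at 1 nM in each class except rat, at 4 on each array: 74 against 61 human, 23 against 17 mouse, 8 against 2 viral, 1 against 0 worm and 16 against 7 mismatch probes. The spike probe Bio B had net signals of 1214.75 and 2550.5, Bio C 1235.5 and 1889, and the glycine tRNA probe 341 and 665. The part of this brighter non-miRNA signal in the values below was not tested. Some epithelial miRNAs were present. Of the 5 in the miR-200 family, 4 were detected on both arrays, namely miR-141, miR-200a, miR-200b and miR-200c, and miR-429 was not detected. Of 6 other epithelial miRNAs, 2 were detected on both arrays. By contrast 0 of 8 blood, 0 of 6 muscle and 0 of 8 liver and neuron markers were detected on either. Among 5 markers of stroma and endothelium miR-214 alone was detected, at 10 nM. Over all members of each list, detected or not, the summed net signals at 1 and 10 nM were -41.25 and 42.25 for blood, -69 and 97.75 for muscle, and 81.75 and 315 for liver and neuron. They were 4081 and 4004 for the miR-200 family, and 982 and 988 for the other epithelial miRNAs.

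Little separated the arrays. Of the 455 human miRNAs, 60 were detected on both arrays, 14 at 10 nM alone, 1 at 1 nM alone and 380 on neither. Among the 75 measured, 2 were higher at 10 nM by 2-fold or more (2.67%) and 0 were lower (0%); at 1.5-fold or more, 3 were higher (4%) and 0 lower (0%). The 2 past 2-fold, miR-214 and miR-568, were not above background at 1 nM, so that their folds are bounds under 2, and among the 60 detected on both arrays 0 reached 2-fold in either direction. Of the 60 detected on both arrays, 59 lay within 1.5-fold, with an SD of the log2 ratio (10 nM over 1 nM, after quantile normalisation of the 2 arrays) of 0.27 over miRNAs. Before normalisation, 37 of the 60 net signals were higher at 10 nM and 23 lower, with a median ratio of 1.11. The plot of net signals shows this as a band along the line of equality. Because signals ran higher at 10 nM, the split of directions depends on scaling: of the 60, quantile normalisation gave 17 higher and 37 lower, median centring 31 and 29, and no normalisation 36 and 24, and the median log2 ratio of the 75 was -0.03, 0.06 and 0.14 in that order. Log2 ratios below are relative to that centre. Of 8 processing settings tried, 1, the value table deposited by the authors, had values for 58 of the 60. Under every setting with a value, 37 of the 60 kept their direction, 15 higher and 22 lower.

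**Figure D1:**
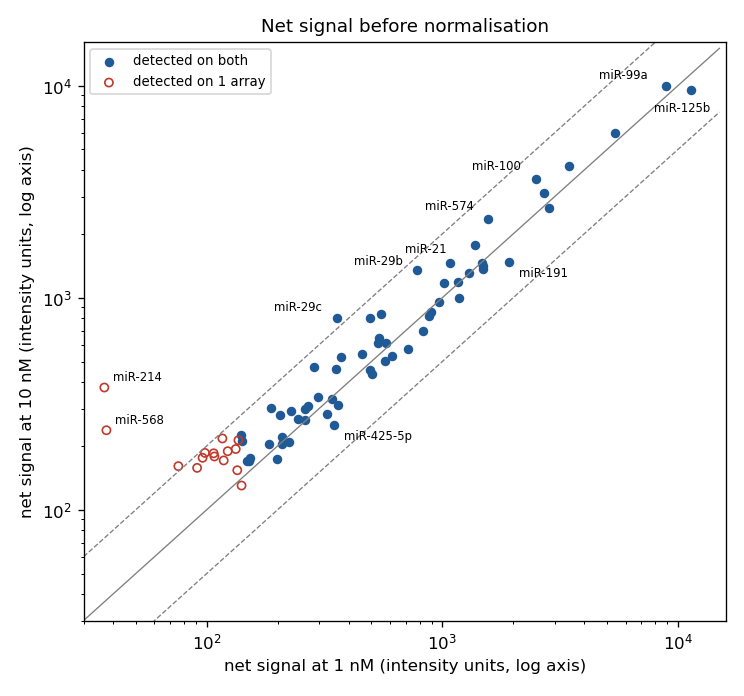
Net signal in intensity units at 1 nM (x axis, log scale) and at 10 nM (y axis, log scale) for the 75 human miRNAs detected on at least 1 array, 1 array per dose. The solid line marks equal signal and the dashed lines 2-fold; of the miRNAs detected on both arrays (filled), miR-29c alone lies past the upper dashed line, at 358.5 and 801, and miR-214 and miR-568 (open) lie far above it.

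MiR-29c and miR-29b, of the miR-29 family, gave the highest ratios among miRNAs detected on both arrays. These miRNAs repress collagen and other extracellular matrix mRNAs and the de novo DNA methyltransferases. MiR-29c had net signals of 358.5 at 1 nM and 801 at 10 nM, and was 1.58-fold higher after normalisation (log2 ratio 0.66). MiR-29b had net signals of 781 and 1347.5, a log2 ratio of 0.57. MiR-29a, the brightest of the 3, had 1372.5 and 1781.5, a log2 ratio of 0.23. All 3 measured members were thus higher at 10 nM, beside 29 of 75 among all measured miRNAs. They were higher under each of the 8 settings. Among the 60 miRNAs detected on both arrays, 15 were higher under every setting with a value. The genes lie in neighbouring pairs: MIR29C at chr1:207801865-207801886 lies 585 bases from MIR29B2, and MIR29A at chr7:130876748-130876769 lies 719 bases from MIR29B1, all on the minus strand. The mismatch copies of the 3 probes had net signals below 0 on both arrays, so their signal was not above background with 2 altered bases.

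Other miRNAs detected on both arrays stood higher by less than miR-29b. MiR-574 had net signals of 1570 and 2362, a log2 ratio of 0.46, and miR-594 had 285.5 and 473, a log2 ratio of 0.37. The mismatch copy of miR-594 was detected on both arrays, at 147 and 207. MiR-148a, which represses the maintenance DNA methyltransferase and is described as androgen-responsive in LNCaP cells, had net signals of 550 and 836.5, 1.29-fold higher; its seed relative miR-148b was dimmer, at 118 and 171, and detected at 10 nM alone.

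MiR-21, which represses the tumour suppressor PDCD4 and lies at chr17:59841273-59841294 on the plus strand within the span of the gene VMP1, had net signals of 1078 at 1 nM and 1459.5 at 10 nM. It was 1.27-fold higher after normalisation, with log2 ratios of 0.29 to 0.44 over the settings. MiR-494, of the imprinted cluster on chromosome 14 (chr14:101029681-101029702, plus strand), had net signals of 494 and 799, a log2 ratio of 0.35. The mouse probe of miR-494 had 127 and 391.5, a log2 ratio of 0.89, and was detected at 10 nM alone. Of 41 miRNAs of that cluster on the array, miR-432 was the other one measured, at 107 and 184.5, detected at 10 nM alone and with a mismatch copy at 101 and 103.

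The miR-99 and miR-100 family, which represses the growth kinase mTOR, stood higher in all 3 members, and in each under the 8 settings. Of the 60 miRNAs detected on both arrays, 15 were higher under every setting with a value. MiR-100 had net signals of 2491 and 3646, a log2 ratio of 0.31. It exchanged ranks with let-7c, whose log2 ratio of -0.31 is the other side of that exchange. Without normalisation miR-100 stood at 0.53 and let-7c at -0.09. MiR-99a, among the brightest probes, had 8887.5 and 10013, and miR-99b 353 and 462, with log2 ratios of 0.21 and 0.08. The 0.21 of miR-99a is a rank exchange with miR-125b. For miR-99a the authors' value table gave 0.03, and its mouse probe gave 0.10. MiR-29a, miR-99a, miR-601 and miR-638 completed the 12 highest. MiR-638, at 188 and 300, had a mismatch copy at 201 and 281, so its signal did not depend on a full match, and its log2 ratio became 0.00 when that copy was subtracted. MiR-601 had 371 and 526, a log2 ratio of 0.20.

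**Figure D2:**
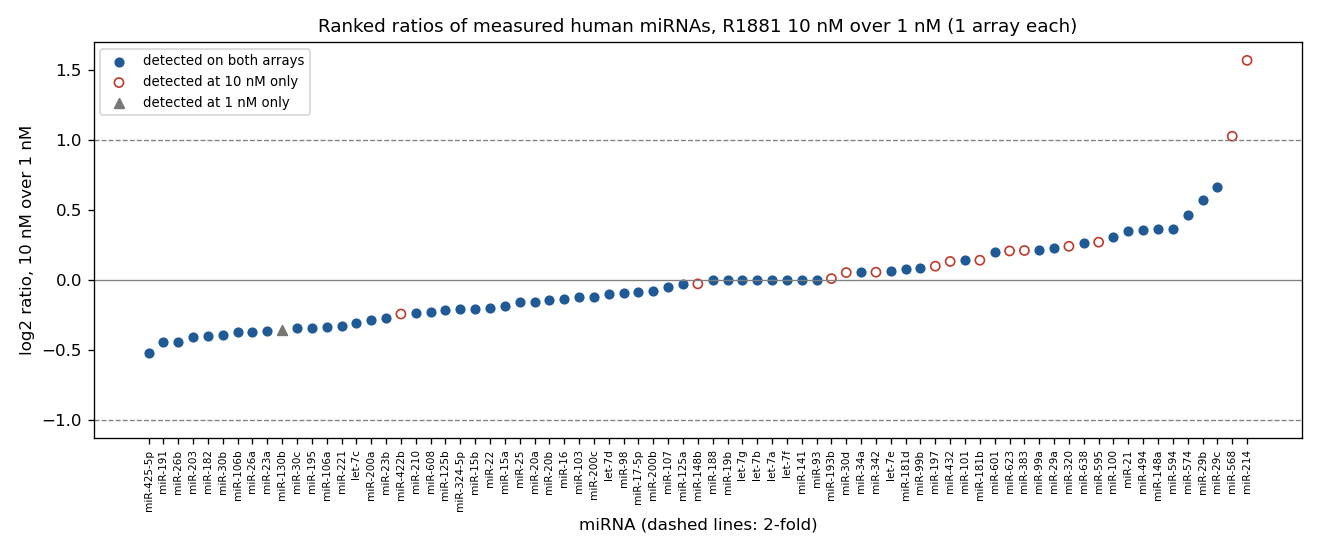
Log2 ratio of the normalised level at 10 nM over that at 1 nM (y axis) for the 75 measured human miRNAs in rising order (x axis), 1 array per dose; filled points were detected on both arrays, open points at 10 nM alone and the triangle at 1 nM alone. The 2 open points above the dashed 2-fold line are miR-568 and miR-214, and filled points run from -0.52 to 0.66.

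Of the 14 miRNAs detected at 10 nM alone, miR-214 stood apart. It is known from stromal cells, and its gene lies at chr1:172138816-172138837 on the minus strand. Its net signals were 36.75 at 1 nM, not above background, and 377 at 10 nM, which makes it at least 1.65-fold higher after normalisation; the measured log2 ratio was 1.57, and 0.92 without background correction. Its mismatch copy had 17.75 and 47.25. The other stromal and endothelial markers, miR-143, miR-145, miR-126 and miR-199a, had net signals of at most 43 on either array, and the summed net signal of the 5 was 62.75 at 1 nM and 433 at 10 nM; the part of stromal cells in this result was not tested. Such a lower bound sets the level at 10 nM against the lowest level of a detected miRNA at 1 nM, or the miRNA's own level there if higher.

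MiR-568, the other miRNA past 2-fold, had net signals of 37.5 and 237 and was at least 1.14-fold higher. Its mismatch copy was brighter than the match probe on both arrays, at 320 and 578, so its signal did not depend on a full match, and its log2 ratio of 1.03 became 0.00 when that copy was subtracted. Without miRNAs whose mismatch copy was detected, 1 of 68 was higher by 2-fold or more. The other 12 had net signals of 75.75 to 136.25 at 1 nM, below the detection limit of 139, and 217 or less at 10 nM. They are miR-148b, miR-181b, miR-193b, miR-197, miR-30d, miR-320, miR-342, miR-383, miR-422b, miR-432, miR-595 and miR-623. MiR-623 had net signals of 116.5 and 217 and was at least 1.04-fold higher, and miR-342 had 136 and 213 and was at least 1.03-fold higher. For the remaining 10, net signals at 10 nM ran from 153.5 for miR-422b to 193 for miR-193b, and no fold is given because the lowest detected level at 1 nM was the higher one. MiR-30d had net signals of 123 and 189, miR-320 had 98.25 and 185, and miR-383 had 96 and 176. The mismatch copies of miR-197 and miR-595 were detected at 10 nM, at 219 and 146.

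The detection limit fell between close neighbours. At 1 nM, miR-101, miR-130b and miR-188 were just inside it, at net signals of 139.25, 140.5 and 141.25, and miR-342, miR-422b and miR-222 just outside, at 136, 135 and 133. At 10 nM, miR-422b, miR-181b and miR-595 were just inside, at 153.5, 157.5 and 160.5, and miR-130b, miR-497 and miR-206 just outside, at 130.0, 129.75 and 129.25. MiR-130b, the 1 miRNA detected at 1 nM alone, thus had close net signals, 140.5 and 130.0, on either side of the limits.

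The lowest ratios were those of the miR-191 and miR-425 cluster. The 2 miRNAs are encoded next to each other, and RefSeq places MIR191 at chr3:49020672-49020694 on the minus strand within the span of DALRD3. MiR-425-5p had net signals of 348 at 1 nM and 251 at 10 nM, 1.43-fold lower, the lowest log2 ratio of the 75, at -0.52. MiR-191, 1 of the brighter probes, had 1909 and 1472, a log2 ratio of -0.45. Both were lower before normalisation too, and over the settings their log2 ratios ran from -0.62 to -0.36 and from -0.71 to -0.36. The mismatch copy of miR-191 moved the other way, with net signals of 29 at 1 nM and 154 at 10 nM.

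MiR-26a and miR-26b, which repress the histone methyltransferase EZH2 and whose genes lie within CTDSP family genes, followed. MiR-26b had net signals of 716 and 573.5, 1.36-fold lower, and miR-26a 826.5 and 693.5, 1.29-fold lower. MiR-101, another miRNA known to repress EZH2, had 139.25 and 225, close to the detection limit at 1 nM, and a log2 ratio of 0.14, opposite to miR-26.

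Several epithelial miRNAs were among the low ratios too. MiR-203, which limits the stem cell factor p63 in skin, had net signals of 570.5 and 504, a log2 ratio of -0.41, while its mouse probe had 176 and 245.5, a log2 ratio of 0.07. MiR-182, known to repress FOXO transcription factors, had 199 and 174, a log2 ratio of -0.40. The others of that list, miR-205, miR-375, miR-183 and miR-96, were detected on neither array. In the miR-200 family, which represses the ZEB factors and holds epithelial identity, miR-200a had 1494.5 and 1359, a log2 ratio of -0.29. MiR-200b had 964 and 956 and miR-200c 1295 and 1302, with log2 ratios of -0.08 and -0.12, and miR-141 had 269 and 308.5 and a ratio of 0.00. For miR-200c and miR-141 the net signals were higher at 10 nM, and the family median of -0.10 was -0.01 without normalisation.

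The remaining low ratios were of the same small size. MiR-30b, of a family linked to epithelial state, had net signals of 612 and 528, a log2 ratio of -0.39, and miR-30c 325 and 283, at -0.34, whereas miR-30d was detected at 10 nM alone. MiR-23a and miR-23b, which repress glutaminase, had 502 and 438, and 492 and 454, with log2 ratios of -0.36 and -0.27. MiR-221, which represses the cell cycle inhibitor p27, had 209 and 204, a log2 ratio of -0.33 that shrank to -0.04 without normalisation. Its mouse probe gave -0.27.

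In the miR-17 seed family, known for promoting proliferation, 5 of 6 measured members were lower and 1 was at 0.00, beside 40 lower among all 75 measured miRNAs. MiR-106b had net signals of 361 and 310.5, a log2 ratio of -0.37, and miR-106a 1182 and 998, at -0.34. The mouse probe of miR-106a gave 0.24, on net signals of 594 and 842, so the 2 probes of that name differ in direction. MiR-20a, miR-20b, miR-17-5p and miR-93 followed at -0.15, -0.15, -0.09 and 0.00, and without normalisation miR-20b and miR-93 stood at 0.07 and 0.14. In the miR-15 and miR-16 family, which represses BCL2 and cyclins, miR-195 had 222.5 and 207.5, a log2 ratio of -0.34. MiR-16 had 1162.5 and 1182, a log2 ratio of -0.14, and miR-15a and miR-15b, at 261 and 264 and at 208 and 219.5, stood at -0.18 and -0.20. The family median of -0.19 became 0.01 without normalisation, so its direction depends on the scaling. MiR-25, at 339 and 334.5, and miR-19b stood at -0.16 and 0.00.

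**Figure D3:**
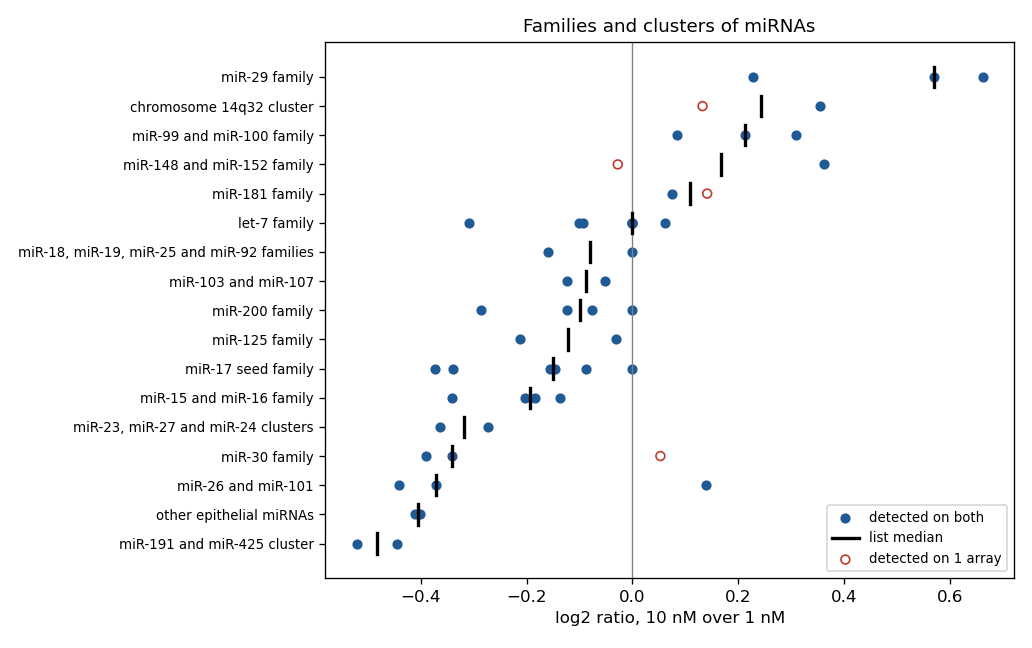
Log2 ratio at 10 nM over 1 nM (x axis) of the measured members of each family or cluster with at least 2 of them (rows), 1 array per dose; filled points were detected on both arrays, open ones on 1, and black bars are list medians. The miR-29 family (median 0.57) and the miR-191 and miR-425 cluster (median -0.48) lie at opposite ends, and the let-7 family is centred on 0.00.

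Of the let-7 family, which represses RAS and HMGA2 mRNAs, 8 of 9 members were measured, and 4 of them kept the same rank on both arrays, which quantile normalisation returns as 0.00. Let-7a, the brightest, had net signals of 5384.5 and 5975, let-7f 2691 and 3104.5, let-7b 1019 and 1167, and let-7g 536 and 647. Let-7e was at a log2 ratio of 0.06. Let-7c, at 2823 and 2654, was at -0.31, the other side of its rank exchange with miR-100. Let-7d, with 3442 and 4189, was at -0.10 by rank though its net signal was higher. The list median was 0.00, and 0.18 without normalisation.

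MiR-125b and miR-99a exchanged the first rank. MiR-125b, which represses p53 and the apoptosis factor BAK1, had the highest net signal at 1 nM, 11358.5, and 9499 at 10 nM; miR-99a had 8887.5 and 10013. Their log2 ratios of -0.21 and 0.21 are that exchange. With median centring they stood at -0.34 and 0.09. MiR-125a, with the same seed, had 533.5 and 609.5, a log2 ratio of -0.03. MiR-103 and miR-107, within PANK genes, had 1486.5 and 1405, and 1478.5 and 1455.5, at -0.12 and -0.05. MiR-34a, a p53 target, had 228 and 293.5, a log2 ratio of 0.06, and miR-181d had 205 and 280.5, a log2 ratio of 0.08. MiR-181b had 91 and 157.5 and was detected at 10 nM alone.

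Of 12 miRNAs described elsewhere as raised by androgen, 8 were measured, 5 higher and 2 lower at 10 nM. Among all 75 measured, 29 were higher and 40 lower. The 8 had a median log2 ratio of 0.18 beside -0.03 over the 75, and 0 of the 8 reached 1.5-fold. The list includes miR-21 and miR-141, on which the study's authors reported, so for these it is not independent evidence. The 5 higher were miR-29b, miR-148a, miR-21, miR-29a and miR-101, miR-141 was at 0.00, and miR-125b and miR-182 were lower. Of 7 described as lowered by androgen, 5 were measured: miR-99a, miR-100 and miR-34a were higher, let-7c and miR-221 lower, and the median was 0.06. Here miR-100 and let-7c exchanged ranks with each other, and miR-99a did so with miR-125b of the first list. MiR-222 and miR-31 were not detected.

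Pairs of miRNAs with a common seed lay closer together in the median than all pairs. RefSeq sequences were matched to 63 of the 75 miRNAs and 55 of the 60. Over the 61 pairs with the same seed the median absolute difference in log2 ratio was 0.10, beside 0.23 over all 1485 pairs. Of the 61, 30 had the same sign, 3 had opposite signs and 28 held a ratio of exactly 0. Of the 1485 the numbers were 666, 510 and 309. The 61 pairs hold 36 miRNAs, so they are not independent. The let-7 family, with 8 members, gives more of them than any other family. Several of its members are held at 0.00 by their ranks, so the smaller median is in part an effect of normalisation. The relatives with 1 seed whose sequences are given above also share most other bases. Bases outside the seed were not compared in the other families. Binding to each other's probes was not tested, so it and a common level cannot be told apart. For the 13 pairs of miRNAs within 10000 bases of each other on 1 strand with different seeds, the median difference was 0.15. Of these, 7 had the same sign, 3 opposite signs and 3 a ratio of 0. The same-sign share was 53.8%, beside 44.8% of all 1485 pairs. Several of the 7 hold miR-19b, whose log2 ratio was -0.0002 and became 0.13 without normalisation. The count of 7 thus depends on the scaling. Let-7c and miR-99a, 737 bases apart, stood at -0.31 and 0.21, and both ratios come from the rank exchanges given above. Base composition differed little: GC content had a median of 43.2% in the 12 highest, of which 10 had a sequence, and 42.9% in the 12 lowest, of which 10 had one. Across the 55 miRNAs, which share the 2 arrays, the log2 ratio and GC content had Pearson r = -0.05 and Spearman rho = -0.10. With the mean level, across the 60, r was 0.17 and rho 0.17.

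Probes outside the human match set differed between the same arrays as well. Their spread is a description and not a replicate error. The SD of the log2 ratio was 0.25 over 594 mismatch probes and 0.24 over 107 viral and worm probes, most of them at background, where the offset narrows ratios. It was 0.34 over the 36 mouse, rat, viral and worm probes detected on at least 1 array. Some of these were bright in the human cells, as was the mouse probe of let-7a, with net signals of 4113 and 4752. Their SD is thus not that of background alone. Under the same filter it was 0.34 over the 75 human miRNAs, and 0.27 over the 60 detected on both arrays. Among the 594 mismatch probes, 0 were at 2-fold or more higher and 1 lower. Human probes and mouse or rat probes of the same name, both detected on both arrays, differed by a median of 0.15 and at most 0.58 in log2 ratio over 10 pairs of 9 miRNAs. In 3 of the 10 both ratios had the same sign, in 4 they were opposite, and in 3 the human ratio was 0. The bases of these probes are not given, so the pairs may not be repeats of 1 measurement. The widest gaps were those of miR-106a and miR-203, at 0.58 and 0.48. The miR-29 family, miR-425-5p and miR-191 are not among these pairs.

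**Figure D4:**
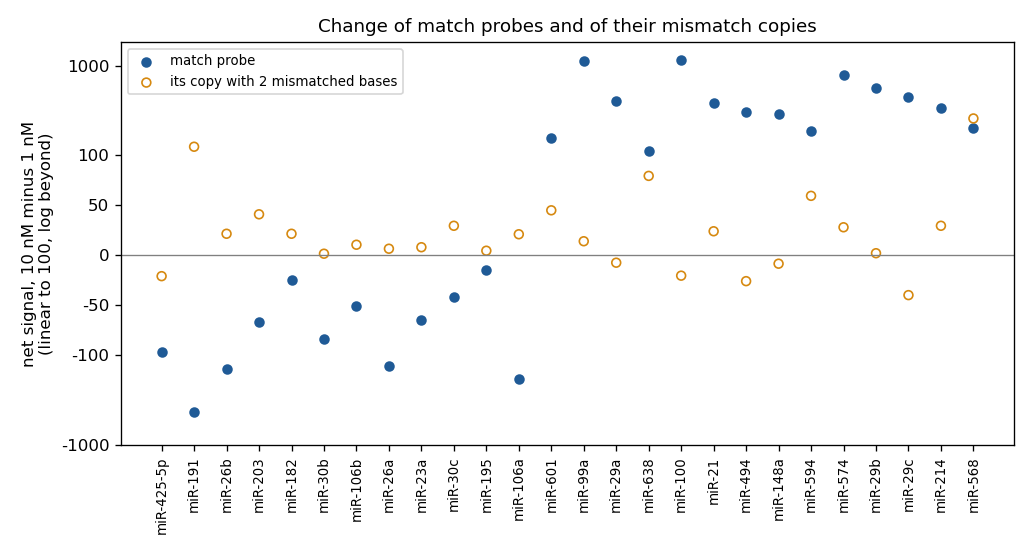
Net signal at 10 nM minus that at 1 nM (y axis, intensity units, linear to 100 and logarithmic beyond) for the match probe and for its copy with 2 mismatched bases, for the 12 lowest and 12 highest miRNAs detected on both arrays and for miR-214 and miR-568 (x axis). The match probe moved further than its copy in all 24. These were picked by the ratio of the match probe, so that count tests nothing. The copy of miR-568 moved further than its match probe.

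Beside the step from 1 to 10 nM stands the step from untreated cells to 0.1 nM, which uses the other 2 arrays. Over the 40 miRNAs detected on all 4 arrays, normalised together, the SD of the log2 ratio was 0.26 for 10 over 1 nM and 0.42 for 0.1 nM over untreated. The 0.1 nM array was dimmer than the untreated one, with 47 against 62 human miRNAs detected and a Bio B net signal of 617 against 1276. Dose and array cannot be told apart in either step. The ratios of both steps had Pearson r = -0.35 and Spearman rho = -0.22 across these 40 miRNAs, which share probes but no array. Across the 60 detected at both 1 and 10 nM, r was -0.38 and rho -0.36, and without normalisation -0.27 and -0.14.

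**Figure D5:**
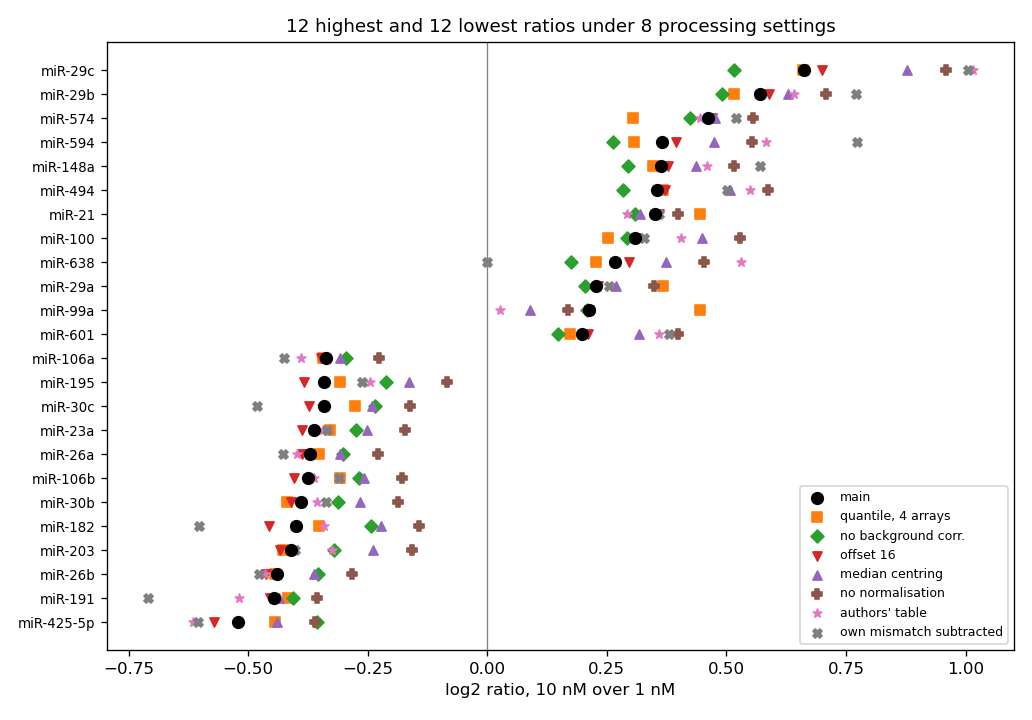
Log2 ratio at 10 nM over 1 nM (x axis) under each of 8 processing settings (symbols) for the 12 highest and 12 lowest miRNAs detected on both arrays (rows). The 12 lowest stay below 0 under all 8, and the 12 highest stay above 0 except miR-638, which is at 0.00 when its mismatch copy is subtracted.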

How the data were processed

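Per the file headers, the deposited array tables give the mean signal of a probe, a linear intensity; the sources used here do not give the scanner, image software or a background step. The value table deposited by the authors subtracts from it 1 constant per array, equal to the median mismatch signal, with cells filled from 148.5 upwards at 1 nM and from 153.5 at 10 nM. Mismatch probes listed at 0 were treated as missing in the correction and the detection limit. R 4.3.3 with limma 3.58.1 was used for normexp correction (offset 50, fitted on every probe) and for quantile normalisation of the 2 arrays over all match probes, whatever the species. An earlier treatment of these data normalised all 4 arrays together, which is kept as an alternative. The offset understates the fold of dim probes, and quantile normalisation fixes the brightest ranks. The steps were run on simulated data with changes of 2-fold or more placed on brighter human probes. Smaller changes and dim probes such as that of miR-214 were not covered by it.

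Human miRNAs detected on at least 1 array were counted at 2-fold. The members, the 25 lists and the rule for named miRNAs were chosen with earlier results of these data known. That rule takes the 12 highest and 12 lowest ratios and the 6 brightest among miRNAs detected on both arrays, those detected on 1 array, those past 2-fold, up to 4 of the brightest in each list, miR-21, miR-141 and miR-125b, and the 3 nearest each side of each detection limit. The array's own miRNA names are kept. Coordinates are RefSeq's and not the files'. Alternatives changed the background correction, normalisation, detection limit, filter, threshold and starting table.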

Additional observations from a re-analysis of the deposited data

Results flagged for a closer look

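Of the probes that the comparison does not use (mouse, rat, viral, worm and mismatch probes), 1 was detected at 10 nM and not at 1 nM with a ratio of 2-fold or more: the mouse probe of miR-713 had net signals of -13.25 at 1 nM and 219.5 at 10 nM, a log2 ratio of 1.59.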

How the results depend on the processing

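With 1 array per dose no ratio has an error, and 380 of 455 miRNAs lay below the detection limit on both arrays, so no difference could be measured for them. No paired analysis was possible because each dose has 1 array, and for the same reason no replicate could be left out. The count higher by 2-fold or more, 2 of 75, was 0 without background correction and among miRNAs detected on both arrays, and 1 with quantile normalisation over 4 arrays, with the authors' value table (miR-29c), with detection at 5 scaled deviations, and without miRNAs whose mismatch probe was detected, an alternative chosen after seeing the data. It was 5 when each probe's own mismatch signal was subtracted. The count lower, 0, was 1 with that subtraction (miR-210), with detection at 2 scaled deviations and with all human probes (miR-380-3p in both). The cause was not tested. The other 16 of 26 counts lay within 1.5 times the reported ones. Of 164 alternative list medians, 163 lay within 1.5-fold of the reported ones; the exception was the chromosome 14 cluster, at 1.14 with own mismatch subtracted. In 4 the sign turned: that cluster (-0.12) and the list lowered by androgen (-0.13) with detection at 2 scaled deviations, and the miR-15 and miR-16 family (0.01) and miR-25 with miR-19b (0.05) without normalisation. For single miRNAs 500 of 508 values lay within 1.5-fold and 39 turned in sign, all from reported ratios under 2-fold, 15 of them without normalisation and 10 with median centring. Reported medians of lists with at least 2 measured members ran from -0.48 to 0.57, less than 1.5-fold (0.585 in log2). Of the 60 miRNAs detected on both arrays, 59 also lay within 1.5-fold. Such a value can fall to 0 and still count as within 1.5-fold, so these counts show little about stability.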
